A study of Mus musculus with 2 samples.

Results

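Genes that handle fatty acids were followed through the stromal vascular fraction (SVF) of mouse gonadal white adipose tissue (gWAT). They were Cd36, Fabp4, Fabp5, Lpl, Gpihbp1, Acsl1, Pnpla2, Lipe and Plin2, taken by name, and all 9 of 9 were among the 28692 genes counted in both single-cell libraries. One library came from male C57BL/6 mice with Adipo-Pgam1 KO, in which floxed Pgam1 is deleted by Cre from the Adipoq promoter, and the other from male littermate controls. The labels call the controls littermate wildtype, while the study's methods describe floxed mice without Cre, and both groups were 13 weeks old. Adipoq-Cre is used to delete genes in adipocytes, most of which float away when SVF is prepared, and the labels do not say in which of the counted cells, preadipocytes included, Cre was active. The genes were picked with earlier results of these data known. The lower Cd36 of KO fibroblasts was among them, so that value is given as a description only.

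Fatty acids reach adipose tissue mostly inside triglyceride-rich lipoproteins. Lipoprotein lipase (Lpl) is made by parenchymal cells and macrophages, and is carried to the capillary surface and held there by the endothelial protein Gpihbp1, where it frees fatty acids. Cd36 is a membrane receptor that takes up long-chain fatty acids and oxidised lipoproteins, and Fabp4 and Fabp5 are small cytosolic proteins that bind fatty acids. Acsl1 activates fatty acids to acyl-CoA, Plin2 coats lipid droplets, and Pnpla2 (adipose triglyceride lipase) and Lipe (hormone-sensitive lipase) split the stored triglyceride and diglyceride.

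In GRCm38 the genes are spread over chromosomes 3, 4, 5, 7, 8 and 15. Fabp4 (chr3:10204088-10208576, minus strand) and Fabp5 (chr3:10012548-10016607, plus strand) both lie on chromosome 3. Cd36 lies at chr5:17781690-17888801 on the minus strand, Lpl at chr8:68880491-68907448 on the plus strand, Gpihbp1 at chr15:75596628-75599481 on the plus strand and Plin2 at chr4:86648386-86670060 on the minus strand. All of them are protein-coding genes, and the counts are of transcript 3′ ends, without regard to exon. The last 500 bases of each member's longest coding transcript matched no transcript of another gene over at least 150 bases at 90% identity or more.

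Promoter sequence from RefSeq (GRCm38.p6) was found for 5 of the 9 members, in 7 windows of 250 bases before a start. Fabp4, Fabp5, Lpl and Gpihbp1 had no entry. The binding element of the PPAR transcription factors, which regulate many fatty acid genes, was searched as 2 copies of AGGTCA in a row with any 1 base between them, on both strands, and was found in 0 of the 7 windows, beside 0.0335% of 32851 windows of the same length. A single copy of AGGTCA, on either strand and whether or not it was part of the longer element, was found in 2 of the 7 and in 14% of all windows. The 2 windows that hold it are shown, those of Cd36 and Plin2. Capitals mark that copy, read here as its reverse complement, at 228 bases before the start in Cd36 and 218 bases before it in Plin2. A match is a description of the letters and not a binding site.
Cd36 (chr5:17835897-17836146, minus strand): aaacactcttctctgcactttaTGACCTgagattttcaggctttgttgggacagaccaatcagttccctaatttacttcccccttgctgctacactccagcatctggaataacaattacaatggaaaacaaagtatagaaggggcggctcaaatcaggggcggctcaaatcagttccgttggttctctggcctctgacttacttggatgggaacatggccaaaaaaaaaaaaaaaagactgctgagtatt
Plin2 (chr4:86670060-86670309, minus strand): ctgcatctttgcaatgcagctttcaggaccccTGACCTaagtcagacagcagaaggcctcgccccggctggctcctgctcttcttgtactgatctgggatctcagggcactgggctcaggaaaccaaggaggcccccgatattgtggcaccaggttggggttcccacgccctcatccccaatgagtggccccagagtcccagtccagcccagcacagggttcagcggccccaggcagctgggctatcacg

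The control library held 8522 barcodes and 42859406 UMIs (unique molecular identifiers, each standing for a captured RNA molecule), and the KO library 2730 barcodes and 13821581 UMIs. After filters on genes, mitochondrial RNA and doublets, 3616 control and 937 KO cells were left, with median depths of 6898 and 7494 UMIs, and no barcode was shared between the kept cells of the libraries. Clustering without the members gave 25 clusters, of which 6 stayed unnamed. The main classes were fibroblast-like cells (900 control and 238 KO cells), macrophage-like cells (649 and 94) and endothelial-like cells (151 and 60). All 10 endothelial markers were detected in the endothelial-like cells of both libraries and at least 2 of them in 99.3% of control and 100% of KO cells. At least 2 fibroblast markers were present in 99.7% and 99.6% of fibroblast-like cells, and at least 2 macrophage markers in 97.5% and 88.3% of macrophage-like cells. Levels are given as CPM, the UMIs of a gene in every 1000000 UMIs of the group. Pgam1 was at 108 CPM in control and 107 CPM in KO fibroblast-like cells, at 82.0 and 67.0 CPM in endothelial-like cells and at 142 and 204 CPM in macrophage-like cells. Among 6 fibroblast-like subclusters its interval was below 0 on the log2 scale in 1 (led by Ccl2, -0.38) and included 0 in the other 5, with 114 and 138 CPM in the committed preadipocyte-like one. The study, by contrast, reports markedly lower Pgam1 in KO cells of a fibroblast cluster rich in adipocyte markers. That cluster was not redrawn here. Whether counts of transcript 3′ ends register the deletion was not tested. There was 1 library per genotype, so no test between genotypes was possible, and the bounds given are 95% intervals of counting error only.

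The members divided the tissue by cell class, as the plot of levels by class shows. Gpihbp1 was nearly confined to endothelium. It had 593 UMIs in control and 509 UMIs in KO endothelial-like cells, a level of 759.8 CPM (699.8 to 823) and 1263 CPM (1156 to 1378). Lymphatic endothelial-like cells came next with 522 CPM in the control and 295 CPM in the KO library. No other class had more than 8 UMIs of Gpihbp1 in a library.

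**Figure D1:**
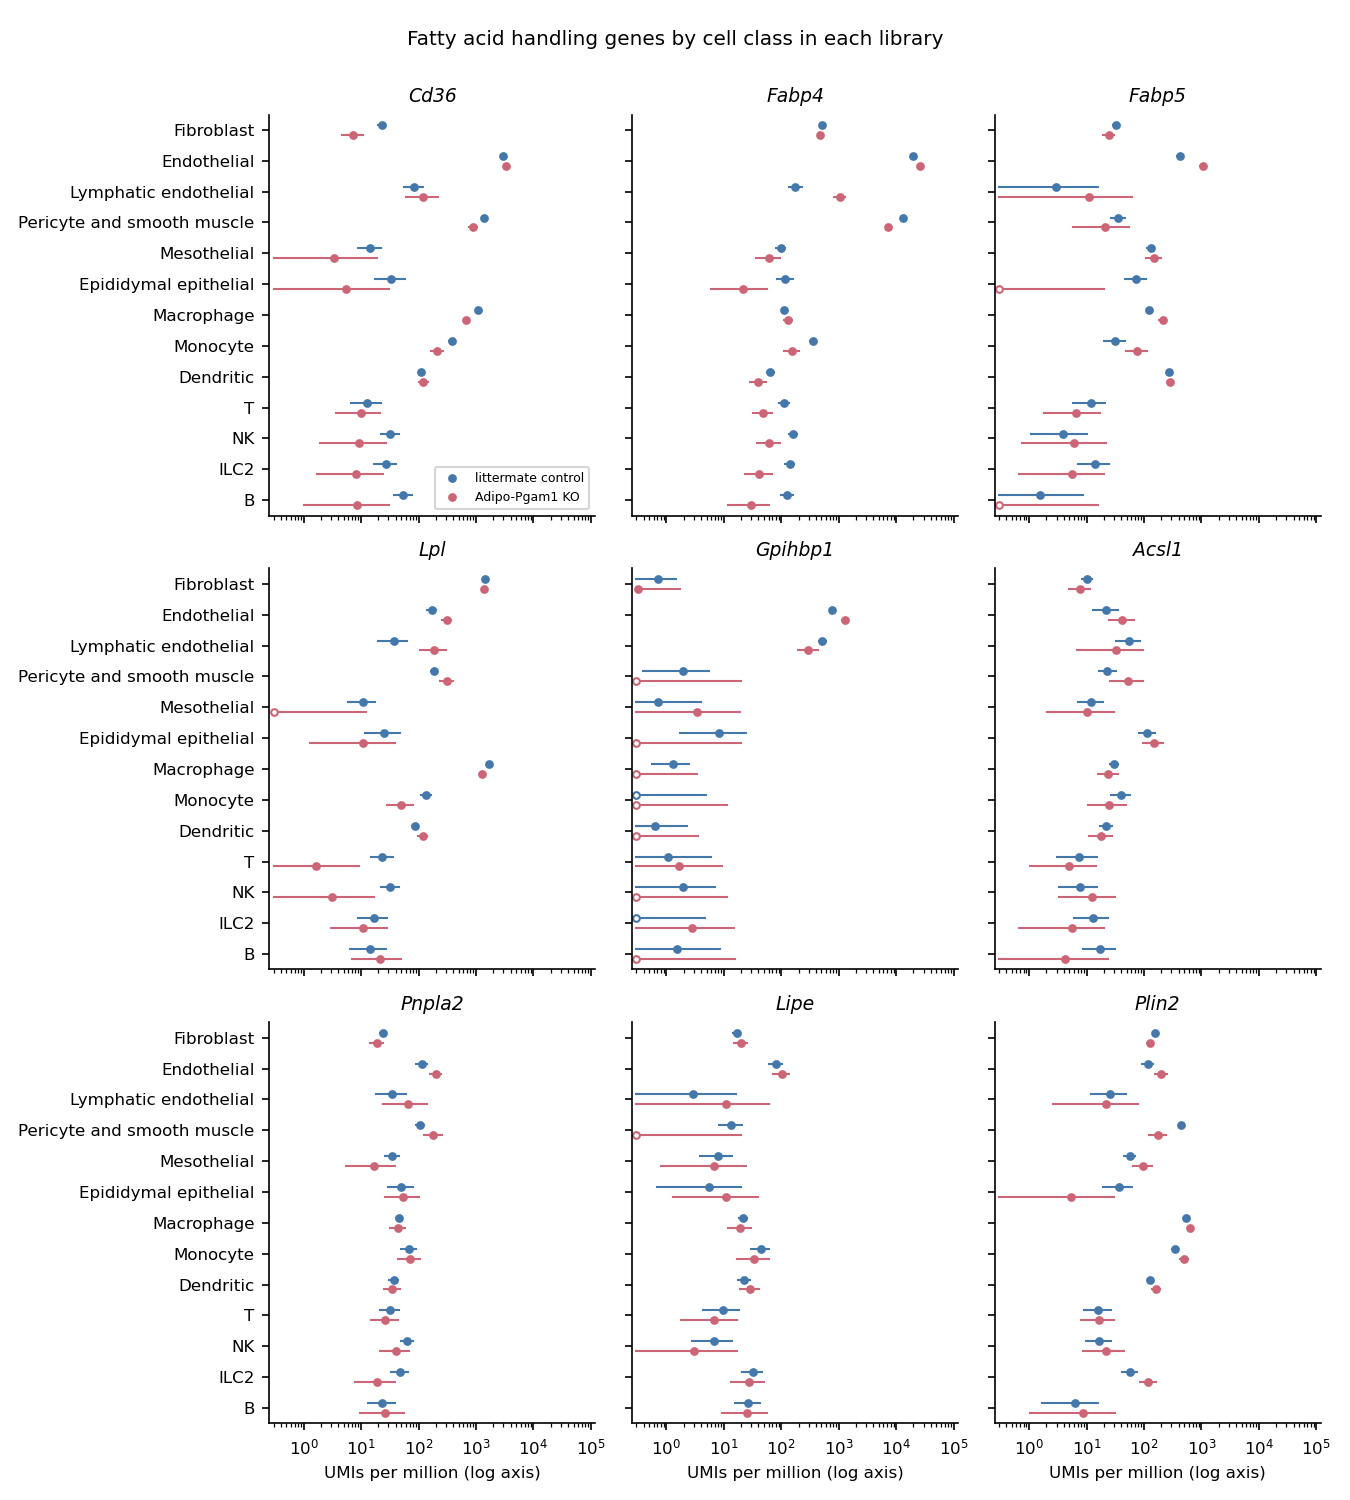
CPM of each gene on a log axis, by cell class, with the control library in blue and the KO library in red, and bars for the 95% counting interval. Open points stand for 0 UMIs and are drawn at the left edge. Gpihbp1 stands in the endothelial and lymphatic endothelial classes, and Cd36 is at 2898 CPM in control endothelial-like cells against 22.9 CPM in control fibroblast-like cells.

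Cd36 and Fabp4 shared the endothelial peak but not the rest of the order. Cd36 was at 2898 CPM (2780 to 3020) in control endothelial-like cells, 1355 CPM in pericyte and smooth muscle-like cells, 1100.4 CPM in macrophage-like cells, 381 CPM in monocyte-like cells and 112 CPM in dendritic-like cells. Each of these steps down to the monocyte-like cells was larger than counting error in both libraries, and the same 5 classes led in the KO library among those with at least 20 cells. From lymphatic endothelial-like cells (83.6 CPM) to ILC2-like cells (26.7 CPM), neighbours in the control order did not differ beyond counting error. Fabp4 was at 19586 CPM in control endothelial-like cells and 13085 CPM in pericyte and smooth muscle-like cells, then at 502 CPM in fibroblast-like cells. Control macrophage-like cells had 113 CPM of Fabp4, no more than the 113 CPM of T cell-like cells, while in the KO library the levels were 130.5 CPM (109.8 to 154) and 48.2 CPM.

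Lpl had a different order, with most of its RNA outside the endothelium. Its level was 1717 CPM (1685 to 1750) in control macrophage-like cells and 1429 CPM (1405 to 1452) in control fibroblast-like cells, against 170.4 CPM in endothelial-like cells and 185 CPM in pericyte and smooth muscle-like cells. The difference between macrophage-like and fibroblast-like cells was small and turned over in the KO library, where Lpl was at 1282 CPM and 1366 CPM. Lpl was detected in 92.9% of control fibroblast-like cells and 65.0% of control macrophage-like cells. In T cell-like cells, which should lack it, 7.28% had a UMI of Lpl, at a median depth of 4377.5 UMIs per cell against 11623.5 in fibroblast-like cells. With every cell thinned to 2000 UMIs the shares were 80.8%, 50% and 4.04%.

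Plin2 was highest in macrophage-like cells at 531 CPM in the control and 622 CPM in the KO library, followed by pericyte and smooth muscle-like cells in the control (436 CPM) and by monocyte-like cells in the KO library (498 CPM). Pnpla2 was most abundant in the vessel wall, with 113 CPM in control endothelial-like and 107 CPM in pericyte and smooth muscle-like cells. Lipe was at 80.7 CPM in control endothelial-like cells, against 13.5 CPM in pericyte and smooth muscle-like and 43.7 CPM in monocyte-like cells. Acsl1 was low in nearly every class, with 10.2 CPM in fibroblast-like and 30.2 CPM in macrophage-like control cells, and highest in epididymal epithelial-like cells with 115 CPM in the control and 147 CPM in the KO library. Fabp5 followed neither Fabp4 nor Cd36. It was at 418 CPM in endothelial-like, 276 CPM in dendritic-like, 131 CPM in mesothelial-like and 123 CPM in macrophage-like control cells.

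Between endothelial-like and fibroblast-like cells of the control library, 7 of the 9 members were at least 2-fold higher in endothelium, where 13.6% of 10550 genes were, and Lpl alone was at least 2-fold lower, as were 18.4% of genes. In the KO library 6 members were higher by this measure and 1 lower, against 12.6% and 21.3% of 7984 genes. The members were chosen with earlier results of these data known, so these counts are a description only. The fold over fibroblast-like cells in the control was 39.0 for Fabp4 and 12.8 for Fabp5, and Lpl was 8.38-fold higher in fibroblast-like cells. Macrophage-like cells exceeded fibroblast-like cells 3.36-fold in Plin2 in the control.

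Endothelial-like cells of the KO library held more of the uptake genes per UMI. For 7 of the 9 members the interval of the KO to control ratio lay above 0 on the log2 scale, and for none below, while 6.48% of 4180 genes lay above and 13.5% below. Fabp5 had the largest difference, from 418 CPM (374 to 466) in the control to 1052 CPM (954 to 1157) in the KO library, a log2 ratio of 1.33 (1.12 to 1.55). Gpihbp1 was higher by 0.73 (0.56 to 0.91), the lipase Lpl by 0.85 (0.49 to 1.22) and Fabp4 by 0.39 (0.35 to 0.42). Cd36 was at 2898 CPM in the control and 3303 CPM in the KO library, with a log2 ratio of 0.19 (0.090 to 0.29).

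Genes of storage and lipolysis lay on the same side. Plin2 was at 115 CPM in the control and 199 CPM in the KO library, a log2 ratio of 0.78 (0.33 to 1.23), and Pnpla2 at 113 CPM and 201 CPM, a log2 ratio of 0.83 (0.38 to 1.29). The intervals of Acsl1 (17 UMIs in each library) and of Lipe (63 and 41 UMIs) included 0. The median log2 ratio of the 9 members was 0.78, and that of the 9101 genes with at least 10 UMIs was -0.14. Only Fabp5 passed 2-fold, the size that 1.46% of genes reached upward, and 0 passed it downward (3.49% of genes).

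**Figure D2:**
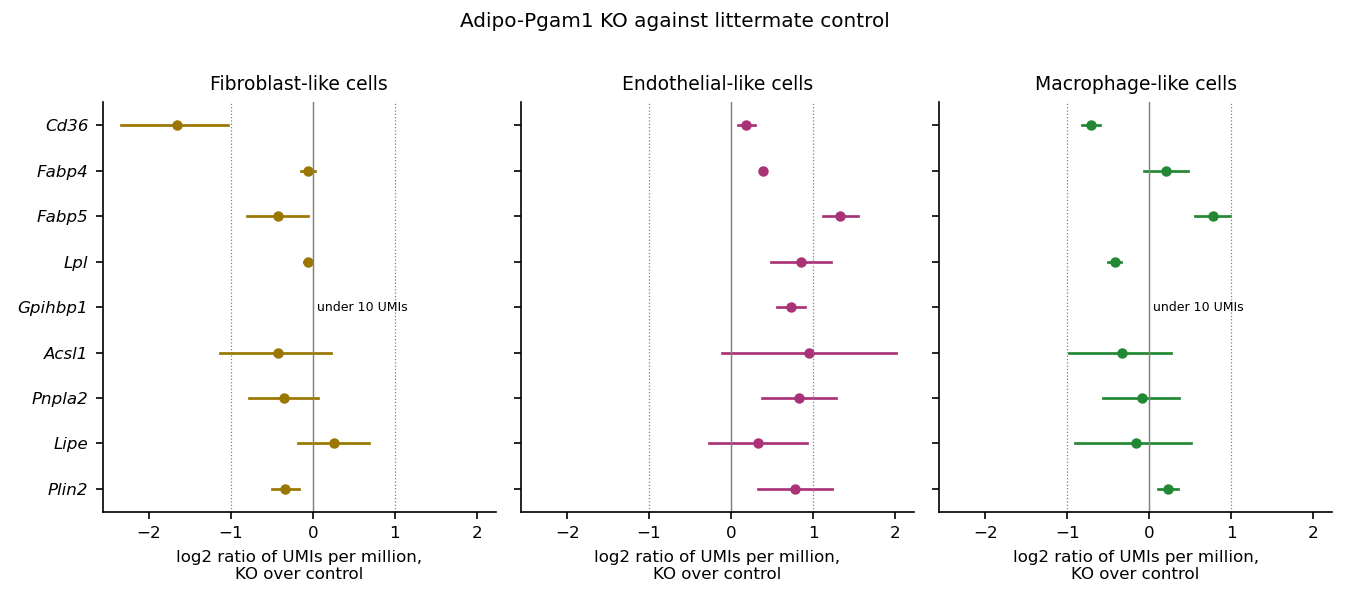
Log2 ratio of CPM, KO over control, for each gene in fibroblast-like, endothelial-like and macrophage-like cells, with 95% intervals of counting error as bars and dotted lines at 2-fold. In endothelial-like cells 7 of 9 intervals lie to the right of 0, and in fibroblast-like cells Cd36 lies at -1.66.

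A few cells carried much of this RNA. In KO endothelial-like cells the 5 cells with the most UMIs of a gene held 62.1% of the Lpl, 50.9% of the Fabp5, 41.7% of the Gpihbp1 and 31.6% of the Cd36 UMIs, against 27.1%, 30.7%, 22.9% and 16.1% in the larger control group. Without these 5 cells of each library, Cd36 and Lpl did not differ beyond counting error (0.013 and 0.012 on the log2 scale), and Fabp5 stayed higher by 0.89 (0.61 to 1.17) and Gpihbp1 by 0.39 (0.18 to 0.61). The 5 cells were a larger part of the 60 KO cells than of the 151 control cells. Their removal thus weighs more on the KO library. Markers of adipocytes summed to 23 UMIs in the control and 14 UMIs in the KO endothelial-like cells (29.5 and 34.7 CPM), with Adipoq at 0 in the control and Lep and Slc2a4 at 0 in the KO library. The macrophage marker list summed to 136 CPM and 29.8 CPM, the fibroblast list to 397 CPM and 280.4 CPM, and their part in the endothelial values was not tested.

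Clustered again on their own, the endothelial-like cells fell into arterial-like (led by Gja5, Igf2, Gkn3, Fn1 and Col8a1), capillary-like (Car4, Cxcl9, Mest, Tmem182 and Adh1) and venous-like cells (Lrg1, Selp, Col13a1, Plvap and Lbp). The capillary-like cells were the main seat of fatty acid uptake genes in both libraries, with Fabp4 at 32731 CPM in the control and 49361 CPM in the KO library, Cd36 at 5821 and 6732 CPM, Gpihbp1 at 1610 and 3068 CPM, and Lpl at 487 and 811 CPM. There were 75 arterial-like, 47 capillary-like and 29 venous-like control cells, and 19, 21 and 20 such KO cells. The arterial-like share was thus 49.7% (41.4 to 57.9) and 31.7% (20.3 to 45.0) of endothelial-like cells, and the values of the whole class mix these shares with the levels within each subset.

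**Figure D3:**
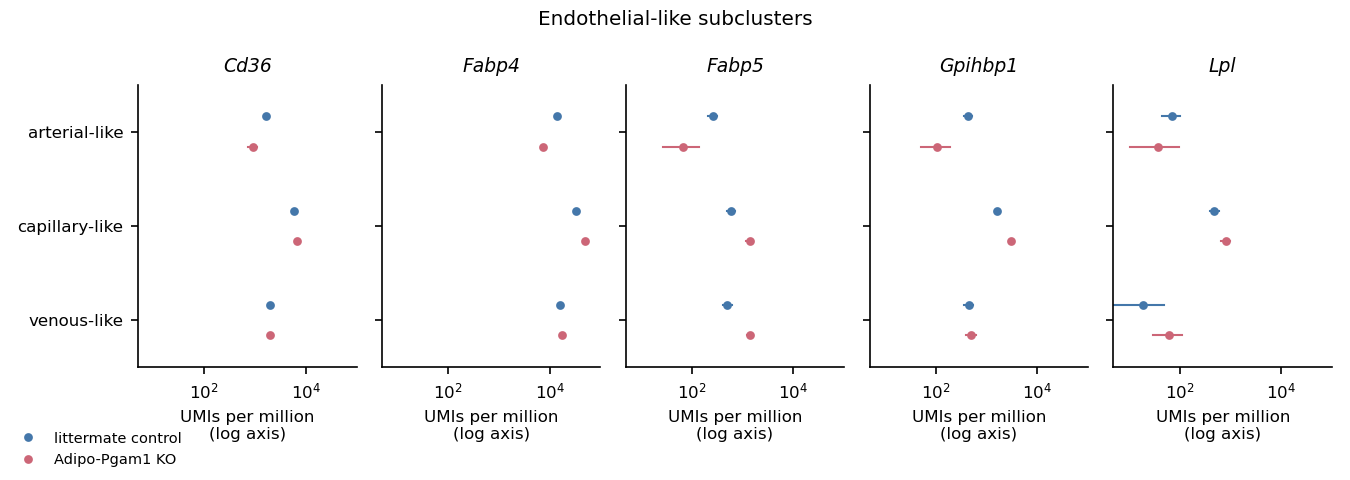
CPM on a log axis of 5 genes in arterial-like, capillary-like and venous-like endothelial cells, with the control library in blue, the KO library in red and 95% counting intervals as bars. In capillary-like cells the KO point lies to the right of the control point for all 5 genes, and in arterial-like cells to the left.

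Within capillary-like cells the KO values were higher beyond counting error for 7 of the 8 members with at least 50 UMIs, beside 9.83% of 1201 genes, and lower for 0 (13.2% of genes). Only 21 KO cells were capillary-like, and leaving out the leading cells of a gene was not repeated within subsets. Pnpla2 had a log2 ratio of 1.72 (0.94 to 2.55), Fabp5 of 1.20 (0.86 to 1.53), Plin2 of 1.04 (0.50 to 1.59), Gpihbp1 of 0.93 (0.72 to 1.14), Lpl of 0.74 (0.34 to 1.14), Fabp4 of 0.59 (0.54 to 0.64) and Cd36 of 0.21 (0.085 to 0.33). Arterial-like cells had the opposite sign for 4 of the 5 members with at least 50 UMIs, beside 12.8% of 1666 genes, and 0 lay above 0 (6.84% of genes). Gpihbp1 was at 433 CPM in the control and 105 CPM in the KO library (log2 ratio -2.04, from -3.08 to -1.16), Fabp5 at 259 and 66.8 CPM (-1.95), Cd36 at 1662 and 898 CPM (-0.89) and Fabp4 at 13899 and 7563 CPM (-0.88). In venous-like cells Fabp5 was at 502 and 1421 CPM (log2 ratio 1.50, from 1.16 to 1.85), and Cd36 (-0.021) and Gpihbp1 (0.17) did not differ beyond counting error. With the 3 subsets given equal weight in both libraries, the log2 ratio of Cd36 in the class was 0.018 and those of Fabp5 and Gpihbp1 were 1.07 and 0.56.

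Fibroblast-like cells, which include the preadipocytes of the tissue, differed little in their main lipid genes. Lpl was at 1429 CPM (14162 UMIs) in the control and 1366 CPM (4327 UMIs) in the KO library, a log2 ratio of -0.065 (-0.11 to -0.016), and Fabp4 at 502 and 480.4 CPM, a ratio of -0.062 (-0.15 to 0.021). Scaled by edgeR's TMM factors, Lpl was at 0.0058, so its sign depended on the scaling. Plin2 was lower in the KO library, with 158 and 125 CPM and a log2 ratio of -0.34 (-0.50 to -0.18), and Fabp5 by -0.43 (-0.81 to -0.065). Acsl1 (10.2 and 7.58 CPM), Pnpla2 (24.1 and 18.9 CPM) and Lipe (16.6 and 19.9 CPM) did not differ beyond counting error. Cd36 chose the gene set and is left out of the counts here. The median log2 ratio of the other 7 members with at least 10 UMIs was -0.34, beside -0.091 over 12874 genes. Of these 7, 3 had an interval below 0, as did 20.3% of 10634 genes, and 0 had one above 0 (9.15% of genes). None of them passed 2-fold, as 1.41% of genes did upward and 1.74% downward.

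Cd36 had 227 UMIs in the 900 control and 23 UMIs in the 238 KO fibroblast-like cells. Its level was 22.9 CPM (20.0 to 26.1) in the control and 7.26 CPM (4.60 to 10.9) in the KO library, a log2 ratio of -1.66 (-2.34 to -1.04). These were low levels on the scale of the tissue. The 4 lymphocyte-like classes (T cell-like, NK cell-like, ILC2-like and B cell-like) are set beside them for comparison. Whether these classes express Cd36 themselves was not tested. Their Cd36 ranged from 12.8 CPM in T cell-like to 54.6 CPM in B cell-like control cells. In the KO library it ranged from 8.26 to 9.97 CPM, on 2 to 6 UMIs a class. Summed over those 4 classes, Cd36 had 101 and 14 UMIs and a log2 ratio of -1.70 (-2.62 to -0.89). The fibroblast-like value lay within the lymphocyte range in the control and below it in the KO library. Within the class it was uneven. Control Cd36 was at 27.4 CPM in the committed preadipocyte-like subcluster (102 UMIs), 54.4 CPM in a subcluster led by Gatm (62 UMIs) and 60.9 CPM in a shallow one (11 UMIs), against 9.54 to 12.0 CPM in the other 3 present in both libraries. The KO levels were 3.21, 11.8 and 9.46 CPM in the first-named 3 (2, 10 and 1 UMIs) and 6.05 to 8.83 CPM in the other 3.

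By share of cells, 13% of control fibroblast-like cells had a UMI of Cd36, beside 8.40% of KO ones, and after thinning to 2000 UMIs the shares were 3.46% (2.31 to 4.96) and 0.939% (0.114 to 3.35), with 91 and 25 shallower cells left out. B cell-like cells had 6.87% and 2.78% after thinning, and T cell-like cells 2.53% and 4.55%. Markers of other cell types also differed between the libraries in these cells, in both directions. Haemoglobin and other erythroid markers summed to 1955 CPM in control and 1005 CPM in KO fibroblast-like cells, the endothelial marker list to 127 and 84.3 CPM and the macrophage list to 42.8 and 13.3 CPM, while the lymphatic endothelial list summed to 8.07 and 37.9 CPM and the pericyte list to 376 and 404 CPM. Fabp4 and Lpl in the lymphocyte-like classes were lower in the KO library by -1.55 (-1.94 to -1.19) and -1.66 (-2.72 to -0.74) on the log2 scale. Plin2 in those classes had the opposite sign, 0.76 (0.26 to 1.26), mainly in ILC2-like cells with 57.2 CPM in the control and 118 CPM in the KO library. The part of free RNA in the fibroblast-like Cd36 value was not tested.

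**Figure D4:**
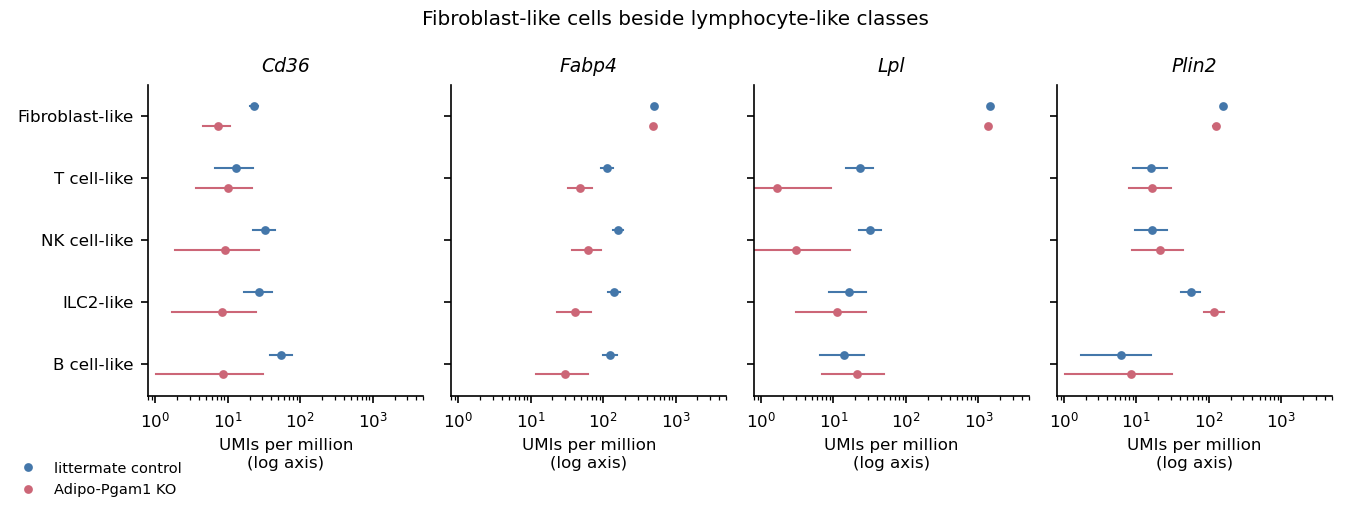
CPM on a log axis of 4 genes in fibroblast-like cells and in the 4 lymphocyte-like classes, with the control library in blue, the KO library in red and 95% counting intervals as bars. Cd36 of fibroblast-like cells, at 22.9 and 7.26 CPM, lies among the lymphocyte-like points or just below them, while their Lpl, at 1429 and 1366 CPM, lies far to the right of those points.

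Subclusters of the fibroblast-like cells differed in their levels of the members. Of the 6 subclusters present in both libraries, Lpl was highest in the committed preadipocyte-like one (led by Cxcl14, Tusc5, Thbs1, Mmd and Hsd11b1) and lowest in the Dpp4-positive progenitor-like one (led by Nov, Efhd1, Dact2, Igfbp5 and Limch1). The committed subcluster had 2189 CPM of Lpl in the control and 2497 CPM in the KO library, and the progenitor-like cells had 360.1 and 415 CPM. An unnamed subcluster led by Gatm, Fndc5, Myh11, Mmd2 and Agt, of which Myh11 is a smooth muscle gene, had the highest Fabp4, 1402 CPM in the control and 940.4 CPM in the KO library, a log2 ratio of -0.58 (-0.70 to -0.45). Progenitor-like Fabp4 lay on the other side, 68.0 and 208 CPM and 1.61 (1.02 to 2.19), with 63 control and 15 KO cells. The shares of these subclusters also differed: the committed one held 36% of control and 17.2% of KO fibroblast-like cells, and the Gatm-led one 9% and 20.6%.

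Macrophage-like cells had less Cd36 and Lpl and more Fabp5 in the KO library. Cd36 was at 1100.4 CPM (1075 to 1127) in the control and 676 CPM (627 to 726) in the KO library, a log2 ratio of -0.70 (-0.82 to -0.59). Lpl was at 1717 and 1282 CPM, a ratio of -0.42 (-0.50 to -0.34), Fabp5 at 123 and 211 CPM, a ratio of 0.78 (0.56 to 0.99), and Plin2 at 531 and 622 CPM, a ratio of 0.23 (0.10 to 0.35). Fabp4, Acsl1, Pnpla2 and Lipe did not differ beyond counting error, and Gpihbp1 had 8 UMIs in control and 0 in KO cells, where 3 UMIs, taken as the limit for a count of 0, would be 2.78 CPM. Of the 8 members with at least 50 UMIs, 2 intervals lay above and 2 below 0, beside 8.48% and 13.3% of 8770 genes. None passed 2-fold, as 1.61% of genes did upward and 4.93% downward. The median log2 ratio was -0.12 for the members and -0.069 for 11379 genes.

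These macrophage values rested on few KO cells. Of the KO UMIs, 66.7% of Fabp5 and 59.6% of Lpl lay in 5 of the 94 cells. Without the 5 leading cells of each library, Fabp5 did not differ beyond counting error (0.12, from -0.25 to 0.48), Lpl was at -1.37 (-1.50 to -1.25) and Cd36 at -1.02 (-1.16 to -0.89). The 5 cells were a larger part of the 94 KO cells than of the 649 control cells. Their removal thus weighs more on the KO library. With the 336 control and 39 KO cells that held at least 2 fibroblast or endothelial markers left out, Lpl turned to 0.10 (-0.019 to 0.22), Fabp4 came to 1.25 (0.91 to 1.57) and Cd36 stayed at -0.71 (-0.88 to -0.54).

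By subcluster, resident-like macrophages (led by Lyve1, Fcna, Folr2, Cd209f and Ednrb) had the highest Cd36, 1934 CPM in 285 control and 1344 CPM in 24 KO cells, a log2 ratio of -0.53 (-0.69 to -0.36). Lipid-associated-like macrophages (led by Mmp12, Arg1, Chil3, Gpnmb and AA467197), the type that gathers around lipid in obese tissue, had the highest Plin2 (1032 and 1040.5 CPM) and Fabp5 (387 and 455 CPM), neither differing beyond counting error between libraries. Their Lpl was at 2566 CPM in the control and 1057 CPM in the KO library, a log2 ratio of -1.28 (-1.45 to -1.11). Lpl of resident-like cells lay on the other side, 293 and 429 CPM and 0.55 (0.24 to 0.85). Retnla-positive-like cells (led by Cd24a, Upb1, Lyz1, Net1 and Hr) had Lpl at 2662 and 2049 CPM, Cd36 at 306 and 307 CPM, and higher Fabp4 (59.0 and 192 CPM) and Fabp5 (55.0 and 189.6 CPM) in the KO library. Resident-like cells made up 43.9% (40.1 to 47.8) of control and 25.5% (17.1 to 35.6) of KO macrophage-like cells. With the 3 subclusters of at least 10 cells in both libraries weighted equally, the log2 ratios were -0.43 for Cd36, -0.64 for Lpl and 0.53 for Fabp5.

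**Figure D5:**
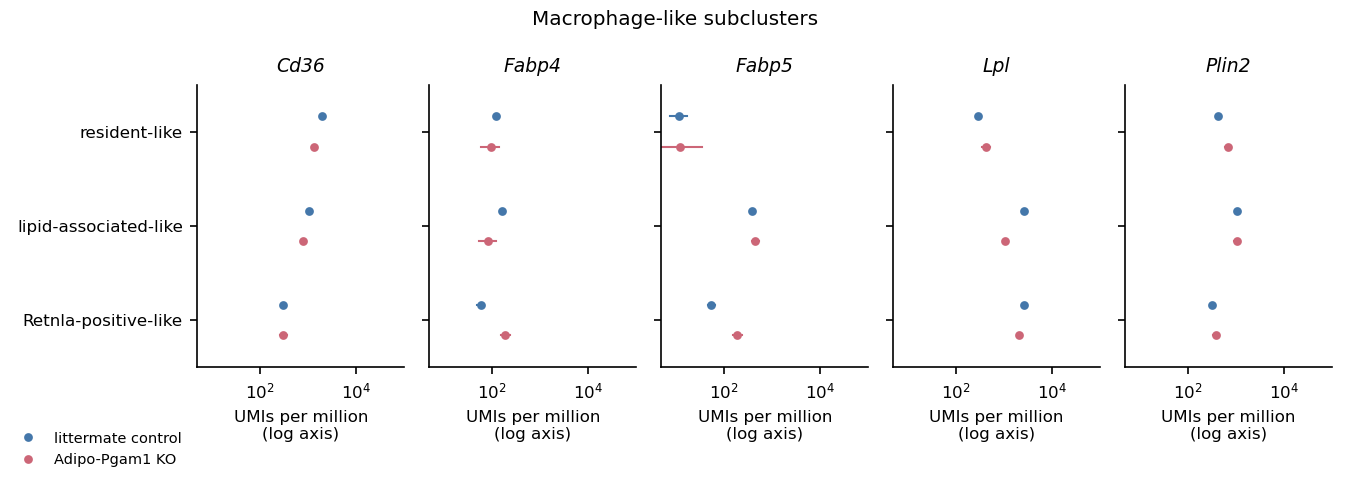
CPM on a log axis of 5 genes in resident-like, lipid-associated-like and Retnla-positive-like macrophages, with the control library in blue, the KO library in red and 95% counting intervals as bars. Cd36 is highest in resident-like cells, Fabp5 and Plin2 in lipid-associated-like cells, and Lpl is lower in resident-like cells than in the other two.

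Pericyte and smooth muscle-like cells, the mural cells of vessels, were rich in Cd36 and Fabp4 without the lipase anchor. Their Gpihbp1 came to 3 UMIs in 218 control cells and 0 in 21 KO cells, and the endothelial marker list summed to 314 and 154 CPM, against 9614 and 10306 CPM in endothelial-like cells. Fabp4 was at 13085 CPM in the control and 7176 CPM in the KO library, Cd36 at 1355 and 898 CPM and Plin2 at 436 and 175 CPM. A Kcnj8- and Rgs5-rich cluster held most of the Fabp4, with 18257 CPM in 164 control cells and 14410 CPM in 15 KO cells. The other cluster had 2587 CPM in 54 control cells and 2151 CPM in 6 KO cells. Cd36 was at 1661 and 1296 CPM in the first cluster and 734 and 621 CPM in the other. Plin2 was at 622 and 350 CPM, and at 58.3 and 54.0 CPM. Median depth was 6197.5 UMIs in control and 1516 UMIs in KO cells of the first, and 9771 and 18102.5 UMIs in the other. Values of the whole class mix both clusters. Lymphatic endothelial-like cells had Gpihbp1 at 522 CPM with Cd36 at only 83.6 CPM and Fabp4 at 176 CPM in the control, so Gpihbp1 there did not come with the other uptake genes. The 12 KO lymphatic cells are too few to be compared.

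The KO to control ratios were compared over classes with at least 20 cells in both libraries and at least 50 UMIs of the gene. Cd36 of fibroblast-like cells chose the genes and is left out here. Elsewhere the Cd36 interval lay below 0 in macrophage-like, pericyte and smooth muscle-like and monocyte-like cells. It lay above 0 in endothelial-like cells and included 0 in dendritic-like cells. For Fabp4 the interval lay below 0 in 7 and above 0 in 1 of 11 such classes, and for Lpl below 0 in 3 and above 0 in 3 of 6. Over all pairs of gene and class with at least 50 UMIs, 12.6% of 61862 intervals lay below and 8.38% above 0. The class above 0 was the endothelial-like one for both Cd36 and Fabp4. Plin2 ran the other way, with 6 classes above and 2 below 0 of 8. In monocyte-like cells Cd36 was at 381 CPM in the control and 211 CPM in the KO library, Fabp4 at 363 and 153 CPM, and Plin2 at 343 and 498 CPM. Classes of a library share its free RNA and are not independent of each other.

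Other genes of fatty acid metabolism were taken as a list of 80, of which 79 were in the files. In endothelial-like cells 22 of them had at least 50 UMIs, and 3 were at least 2-fold higher and 1 lower in the KO library, beside 1.46% and 3.49% of 4180 genes. Angptl4, a secreted inhibitor of Lpl, was at 191 CPM in the control and 583 CPM in the KO library, a log2 ratio of 1.61 (1.31 to 1.92). Pparg, the nuclear receptor that drives many lipid genes, was at 76.9 and 161 CPM (1.07, from 0.54 to 1.60), Scd1, a fatty acid desaturase, at 26.9 and 76.9 CPM, and Slc27a3, an acyl-CoA synthetase of the fatty acid transport family, at 56.4 and 24.8 CPM. The list's median log2 ratio was -0.024, beside -0.14 over all genes.

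Fibroblast-like cells had 50 genes of the list with at least 50 UMIs, of which 2 were at least 2-fold higher and 1 lower, beside 1.41% and 1.74% of all genes. Apoc1, an apolipoprotein, was at 8.78 and 28.7 CPM (1.71, from 1.27 to 2.15) and Slc27a1, a fatty acid transporter, at 5.95 and 12.0 CPM, both higher in the KO library. Meox2, a transcription factor known for control of endothelial fatty acid transport, was lower at 6.25 and 2.84 CPM. In macrophage-like cells 3 of 43 genes were at least 2-fold higher and 4 lower, beside 1.61% and 4.93% of 8770 genes. Hilpda, which inhibits Pnpla2, was at 17.3 and 53.7 CPM (1.64, from 1.15 to 2.11), Fasn, the fatty acid synthase, at 9.59 and 22.2 CPM and Slc27a3 at 9.75 and 22.2 CPM. Abhd6, a monoacylglycerol lipase, had 71 and 2 UMIs, Scd1 61 and 1 UMIs, the nuclear receptor Rxra 200 and 17 UMIs, and the oxidation gene Cpt2 58 and 5 UMIs, the last with an interval that included 0. The median log2 ratio of the list was -0.15 in fibroblast-like and -0.18 in macrophage-like cells. No subgroup of the list (uptake and activation, lipoprotein lipolysis, intracellular lipolysis, lipid droplet, triglyceride synthesis, fatty acid synthesis, oxidation, regulators) had more than 1 gene past 2-fold in the same direction in any of the 3 main classes.

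Across 25 groups of class and library, the genes whose levels were most like each member's followed the cell classes. Gpihbp1 ran with Mmrn2, Robo4 and Rasip1 (Pearson r of log2(CPM + 10) of 0.99 for each), Fabp4 with Ebf3, Hrct1 and Meox2 (0.96, 0.95 and 0.94), and Cd36 with Tmem86a, Plxnd1 and Cd300lg (0.87, 0.87 and 0.85). Lpl was most like Lifr, Fn1 and Tlr4 (0.85, 0.84 and 0.84), Fabp5 like Lmo1, Adgrg6 and Rnf144b (0.86, 0.85 and 0.83), and Plin2 like Apba1, Dennd5a and Dusp1 (0.85, 0.84 and 0.84). Acsl1 was closest to Ndufa7 (0.85), Dhrs1 (0.83) and Gng5 (0.81), Pnpla2 to Sncg (0.85), Flt1 (0.81) and Timp4 (0.81), and Lipe to Tmem88 (0.77), Csf2rb2 (0.76) and Kcne3 (0.75). Among the members, Cd36 and Pnpla2 had an r of 0.79, Cd36 and Fabp4 of 0.76, and Gpihbp1 and Lpl of 0.11. The groups share libraries and free RNA, so these values describe the pattern only. In single cells, 25.2% (18.5 to 32.9) of control and 26.7% (16.1 to 39.7) of KO endothelial-like cells had a UMI of both Lpl and Gpihbp1, where 7.28% of control and 1.04% of KO T cell-like cells had a UMI of Lpl.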

How the data were processed

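SVF cells of gWAT were profiled by 10x 3′ single-cell RNA sequencing, 1 library per genotype. The authors aligned reads to mm10 (GRCm38) and counted UMIs with Cell Ranger 3.0.1 (with Seurat 3.1.5 and R 4.0.1, per the submitters' processing notes), and the deposited values are whole-number UMI counts per gene and barcode, without normalization. Free RNA was not removed.

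Barcodes needed 500 detected genes or more and no more than 10% of UMIs from mitochondrial genes (3881 control and 958 KO passed), and the highest Scrublet scores (0.8% per 1000 barcodes, 265 and 21 cells) were removed. Counts were normalised to 10000 per cell and logged, and 2000 variable genes, without the members, the fatty acid list and Pgam1, gave 30 principal components, a graph of 20 shared neighbours and Leiden clusters (resolution 0.5, scanpy 1.11.5, leidenalg 0.10.2). A cluster was named X-like when its mean marker z-score passed 0.5 and led the next class by 0.75 (0.3 for subclusters). At least 3 of its markers had to be in at least 10% of cells. Its top 10 genes had to hold no marker of another class, or more of its own, in subclusters too. The larger fibroblast-like clusters, a macrophage-like cluster and the committed preadipocyte-like subcluster had none of their own markers there. These cutoffs were partly chosen once the clusters had been inspected. The members, gene lists and marker lists were chosen with earlier results of these data known.

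UMIs were summed per class and library. Intervals are exact Poisson (CPM), Clopper-Pearson (shares) and conditional binomial (ratios) at 95%. PCR duplicates are collapsed by UMI, but cells of a library are not replicates, so intervals cover counting error only. Past 2-fold was counted with counts under 3 set to 3 among genes with at least 50 UMIs, and medians over genes with at least 10. Named genes were the 9 members, list genes past 2-fold, the 3 most alike genes of each member (genes with at least 200 UMIs) and 5 leading genes per subcluster. The scripts for ratios and intervals were checked on simulated counts, which is no test of the genotypes. edgeR 4.0.16 gave only the TMM factors of an alternative, and no count test was run.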

Additional observations from a re-analysis of the deposited data

Results flagged for a closer look

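Several members had KO to control ratios whose counting intervals lay on opposite sides of 0 in 2 cell classes. With 1 library per genotype the differences between classes were not tested. Cd36 had a log2 ratio of 0.19 in endothelial-like, -0.70 in macrophage-like and -1.66 in fibroblast-like cells. Fabp5 had 1.33 in endothelial-like, 0.78 in macrophage-like and -0.43 in fibroblast-like cells. For Lpl the values were 0.85 in endothelial-like, -0.42 in macrophage-like and -0.065 in fibroblast-like cells, and for Plin2 0.78, 0.23 and -0.34 in endothelial-like, macrophage-like and fibroblast-like cells.

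The same was seen between subclusters of a class, again untested. Within endothelial-like cells, capillary-like against arterial-like values were 0.21 and -0.89 for Cd36, 0.59 and -0.88 for Fabp4, and 0.93 and -2.04 for Gpihbp1, and Fabp5 had 1.50 in venous-like and -1.95 in arterial-like cells. Within fibroblast-like cells, Fabp4 had 1.61 in Dpp4-positive progenitor-like cells and -0.58 in the unnamed subcluster led by Gatm. Lpl there had 0.23 in an unnamed subcluster led by Ccl2, Cxcl1, Mt2, Ccl7 and Cdkn1a, and -0.74 in another unnamed subcluster, of shallow cells led by Retnla, H2-Aa, Hrsp12, AY036118 and Rps27rt. Within macrophage-like cells, Fabp4 had 1.70 in Retnla-positive-like and -0.97 in lipid-associated-like cells, and Lpl had 0.55 in resident-like and -1.28 in lipid-associated-like cells.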

How the results depend on the processing

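No paired analysis was possible because each genotype had 1 library and no test was run. The spread between mice could not be estimated, the labels do not say how many mice each library pools, and genotype and library cannot be told apart. The KO macrophage-like (94 cells), endothelial-like (60) and mural (21) groups limit what can be detected.

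Alternatives with another cell filter (200 genes and 20% mitochondrial UMIs, or 1000 genes and 5%), members allowed in clustering, classes taken from each cell alone, other scalings, thinning to 2000 UMIs, and cells left out were applied to each value, and 2 were chosen after seeing the data (subclusters weighted equally, and fibroblast-like cells without a shallow cluster and 7 cells with Schwann cell markers). Of 366 alternative values of single members between libraries, 288 stayed inside the counting interval and 74 moved outside it, and 4 went to the other sign from an interval that excluded 0. Counting ratios near 0 too, 22 had the other sign. A further alternative, a minimum of 50 UMIs, acts on the medians only. Its values for the 24 single-member ratios equal the main ones by construction and are among the 288. The fibroblast-like Cd36 ratio, which chose the genes, ranged from -2.05 to -1.10. In endothelial-like cells Cd36, Fabp4, Fabp5, Lpl, Gpihbp1, Plin2 and Pnpla2 stayed above 0 in 15 of 15, the minimum of 50 UMIs included. The lowest values were 0.012 for Lpl and 0.013 for Cd36, neither beyond counting error. TMM factors raised every endothelial-like log2 ratio by 0.10.

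Causes of the following shifts were not tested. The fibroblast-like Lpl ratio was 0.013 with classes from each cell alone, 0.0058 with TMM factors and 0.0056 with median-of-ratios factors. The macrophage-like Lpl ratio was 0.10 without cells with 2 markers of another main class. Between classes, the control macrophage-like to fibroblast-like ratio of Lpl was -2.46 with 200 genes and 20% mitochondrial UMIs, -0.20 as mean CPM per cell and -0.30 after thinning, and that of Fabp5 -1.89 with 200 genes and 20%. The KO endothelial-like to macrophage-like ratio of Lpl was 1.02 with 200 genes and 20%. The members' median was 0.27 in endothelial-like cells with 1000 genes and 5%, and -0.77 in macrophage-like cells without the 5 leading cells of each gene.

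Only genes with at least 50 UMIs entered the counts below, so a gene could leave a count after thinning by depth alone. In the main setting 1.41% of genes in fibroblast-like cells passed 2-fold upward and 1.74% downward. The number of members past 2-fold in fibroblast-like cells (1, Cd36, which chose the genes) was 0 after thinning and 2 with equal weights. In endothelial-like cells (1) it was 2 as mean CPM per cell, 3 after thinning, 4 without cells with markers of another class and 0 without the 5 leading cells. In macrophage-like cells (0) it was 1 with 200 genes and 20%, 3 with 1000 genes and 5%, 2 as mean CPM per cell, 1 after thinning, and 2 each without cells with other markers and without the 5 leading cells. For the fatty acid list in fibroblast-like cells (3) the number was 1 with members allowed in clustering, after thinning, without cells with other markers, without the 5 leading cells and without the shallow cluster. In endothelial-like cells (4) it was 1 with 200 genes and 20%, 2 with 1000 genes and 5%, 1 after thinning and 2 without cells with other markers. In macrophage-like cells (7) it was 2 with 200 genes and 20%, 2 with 1000 genes and 5%, 4 with classes from each cell alone, 0 after thinning, 3 without cells with other markers and 2 with equal weights.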
